A study of Homo sapiens with 8 samples.

Results

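The genes described here encode the catalytic subunits (PPP2CA and PPP2CB), the scaffold subunits (PPP2R1A and PPP2R1B) and the B55 regulatory subunits (PPP2R2A, PPP2R2B, PPP2R2C and PPP2R2D) of protein phosphatase 2A (PP2A). These 8 genes were taken by symbol from the 58233 gene rows of a count table, and all 8 were found. The table holds RNA-seq counts from MCF10A-Hras cells, which derive from human mammary epithelium. Control and knockout cells both carry the introduced H-Ras oncogene. Control (WT) cells and RBM6-KO1 cells, each untreated or 12 h after 5 Gy of X-ray ionizing radiation (IR), were sequenced in 2 replicates per group (A and B), 8 libraries in all. RBM6-KO1 is a single knockout clone, made with a Cas9 nickase and a pair of guide RNAs against exon 3 of the RNA-binding protein gene RBM6. What separates the clone from the control for reasons other than RBM6 cannot be told apart from the knockout in these libraries.

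PP2A is a major serine/threonine phosphatase of human cells. Its core enzyme is a scaffold subunit bound to a catalytic subunit, and a further, regulatory subunit decides which substrates the enzyme meets. The B55 subunits direct PP2A to substrates of mitotic kinases, and B55-bound PP2A is held in check during mitosis by the Greatwall kinase and its targets ENSA and ARPP19. PPP2R2A and PPP2R2D are broadly expressed, whereas PPP2R2B and PPP2R2C are known mainly from the brain. PPP2R2C was singled out by the study in these same libraries, so its difference between the genotypes here is a description and not independent evidence. Beyond these libraries, the study reports reduced PPP2R2C by RT-qPCR in RBM6-KO1 and in further RBM6 knockout clones.

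The libraries held 15355281 to 29832009 counts on genes, of which the deepest was replicate B of irradiated control cells. The limit that a count of 0 allows, 3 counts, was 0.101 to 0.195 CPM (counts per 1000000 counts of the library). All other CPM values are normalized by edgeR's TMM factors. RBM6 mRNA was at 66.8 and 68.7 CPM in the untreated and at 54.5 and 48.9 CPM in the irradiated control libraries. In the knockout it was at 61.4 and 63.1 CPM untreated and at 43.96 and 33.9 CPM irradiated. The knockout differed from control by -0.14 on the log2 scale when untreated (adjusted p = 0.712, edgeR's quasi-likelihood test, Benjamini-Hochberg adjustment) and by -0.40 after IR (adjusted p = 0.535, edgeR). Counts over a whole gene do not read an edited exon, so RBM6 mRNA does not check the knockout labels. Markers of the labelled cell type were high in every library, with 7 basal breast epithelial markers summing to 2632 to 3593 CPM, while the T cell marker CD3E had no count and the leukocyte marker PTPRC at most 2 counts. Of the endothelial markers, CDH5 had at most 4 counts and PECAM1 had 25 to 93. Their summed level was 1.78 to 2.36 CPM in untreated and 1.16 to 1.88 in irradiated control cells, against 3.15 to 6.32 and 3.76 to 4.11 CPM in RBM6-KO1 cells, and so moved with genotype. Its part in the results was not tested.

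PPP2R2C is the gene on which the genotype comparisons below turn, and its promoter windows are shown with that of PPP2R2D, a B55 gene whose level did not pass any test. The RefSeq promoter table (GRCh38.p14) held windows for 6 of the 8 genes, 13 windows in all, of which 5 belong to PPP2R2C. Counts per gene do not tell its starts apart. Each window printed is the 250 bases before a start, on the strand of the gene and from 5′ to 3′. Capitals mark GC boxes (GGGCGG on either strand), a cyclic AMP response element (TGACGTCA) and CCAAT boxes (CCAAT on either strand), and neighbouring GC boxes may overlap. The first window lies before the most distal PPP2R2C start, at chr4:6563800-6564049 on the minus strand, outside any annotated gene. The second, at chr4:6472615-6472864, lies before the start of the transcript marked canonical in GENCODE v44, in an intron of the longer PPP2R2C transcripts. The third, at chr10:131900758-131901007 on the plus strand, lies before PPP2R2D, outside any annotated gene.
PPP2R2C distal start: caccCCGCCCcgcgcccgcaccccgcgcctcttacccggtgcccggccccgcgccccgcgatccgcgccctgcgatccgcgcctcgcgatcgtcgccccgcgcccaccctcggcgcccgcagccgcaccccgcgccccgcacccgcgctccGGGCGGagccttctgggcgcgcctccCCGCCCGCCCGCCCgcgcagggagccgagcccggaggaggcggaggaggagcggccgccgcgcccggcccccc
PPP2R2C canonical start: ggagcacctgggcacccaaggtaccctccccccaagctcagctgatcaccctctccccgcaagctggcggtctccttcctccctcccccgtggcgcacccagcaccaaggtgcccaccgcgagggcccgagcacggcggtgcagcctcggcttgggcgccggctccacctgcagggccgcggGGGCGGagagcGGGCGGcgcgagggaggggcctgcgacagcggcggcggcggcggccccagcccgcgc
PPP2R2D: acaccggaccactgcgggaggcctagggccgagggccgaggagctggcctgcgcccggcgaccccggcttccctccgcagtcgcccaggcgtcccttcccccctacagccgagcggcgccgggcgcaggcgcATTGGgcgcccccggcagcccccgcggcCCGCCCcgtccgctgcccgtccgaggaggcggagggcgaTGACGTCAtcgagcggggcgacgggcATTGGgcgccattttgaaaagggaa
The distal PPP2R2C window was 86.0% G or C, a percentile of 99.7 among 35116 promoter windows of this length, with 49 CpG dinucleotides and 5 GC boxes. The canonical PPP2R2C window was 77.6% G or C, with 27 CpG and 2 GC boxes. The PPP2R2D window was 76.0% G or C, with 34 CpG, 1 GC box, 1 cyclic AMP response element and 2 CCAAT boxes. Over all windows the median was 58.0% G or C and 11 CpG. A GC box stood in 42.6% of all windows, a cyclic AMP response element in 1.65%, a CCAAT box in 32.0%, a TATA box (TATAAA) in 10.7% and a p53 half-site in 5.57%. Neither a TATA box nor a p53 half-site stood in the 3 windows printed. Of the PPP2R2C windows not printed, the one at chr4:6421119-6421368 held 1 p53 half-site and 2 CCAAT boxes. These matches describe letters only.

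The abundant genes of the set were those of the core enzyme. Per kilobase of merged exons, the mean level over the 8 libraries was 28.6 ± 2.02 CPM per kb (SD) for PPP2CA, 26.7 ± 2.26 for PPP2R1A and 22.7 ± 4.93 for PPP2CB. Then followed PPP2R2A with 12.2 ± 0.913, PPP2R2D with 5.78 ± 0.392, PPP2R1B with 4.15 ± 0.887, PPP2R2C with 0.401 ± 0.314 and PPP2R2B with 0.0103 ± 0.00632 CPM per kb. The ranges over the libraries of PPP2CA, PPP2R1A and PPP2CB overlapped, so their order is not resolved. Those of PPP2R2D (5.17 to 6.42) and PPP2R1B (2.67 to 5.28) also met. PPP2R2A stood apart from its neighbours in this order, and so did PPP2R2C and PPP2R2B. With the length of the longest transcript in place of merged exons, PPP2CB came first with 52.6 CPM per kb, before PPP2R1A with 51.7, PPP2CA with 38.2 and PPP2R2A with 27.4. The order among the 3 most abundant genes therefore depends on the length used.

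**Figure D1:**
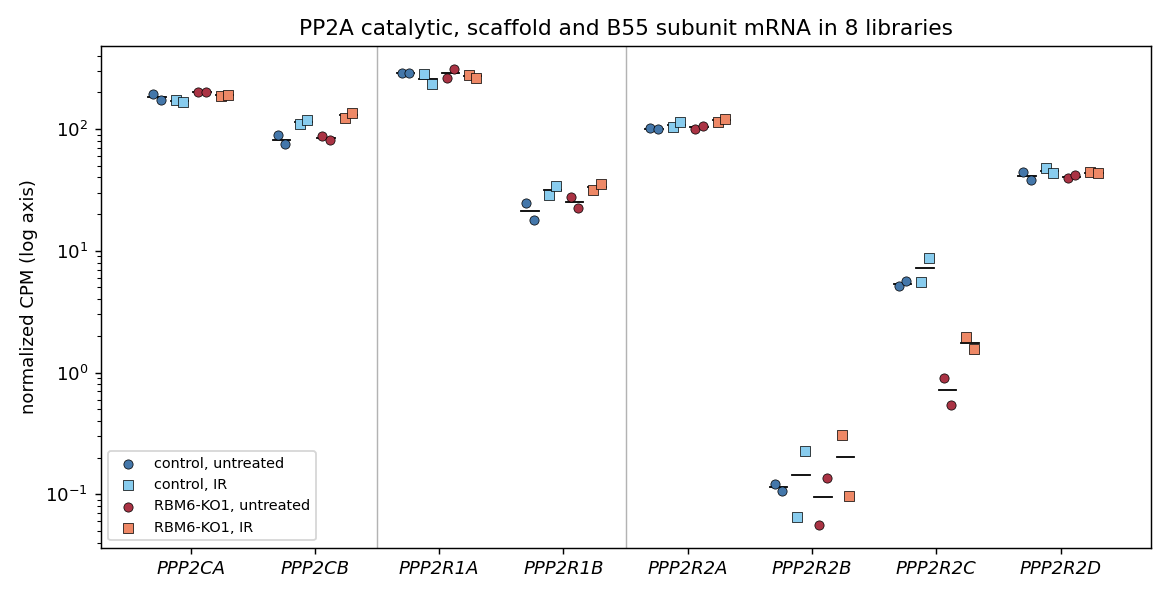
Normalized CPM (log axis) of the 8 PP2A genes in each library, with the 4 groups side by side for each gene and a bar at the mean of each pair of replicates. The RBM6-KO1 libraries of PPP2R2C lie between 0.543 and 1.96 CPM, below every control library (5.15 to 8.78 CPM), while the highest library of each of the 6 more abundant genes is 1.21 to 1.98 times its lowest.

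Which of these genes differed between RBM6-KO1 and control cells was asked first in untreated cells. A call needed both an adjusted p below 0.05 and a change of 2-fold or more. The catalytic and scaffold genes did not pass. PPP2CA, which encodes the alpha form of the catalytic subunit, was at 193 and 174 CPM in the untreated control libraries and at 202 and 200.4 CPM in the untreated RBM6-KO1 libraries. The RBM6-KO1 libraries were slightly higher and the groups did not overlap, with a log2 fold change of 0.12 (95% interval -0.17 to 0.41, adjusted p = 0.740, edgeR's quasi-likelihood test). PPP2CB, which encodes its almost identical beta form, was at 88.6 and 74.7 CPM in control cells and at 87.9 and 81.0 in RBM6-KO1 cells, and the groups overlapped (log2 fold change 0.04, interval -0.28 to 0.35). PPP2R1A, the main scaffold gene, was at 289.9 and 286 CPM in control cells against 264 and 312 in RBM6-KO1 cells (log2 fold change -0.01, interval -0.30 to 0.28). The lower of its RBM6-KO1 libraries lay below both control libraries and the higher above both. PPP2R1B, the minor scaffold gene, was at 24.9 and 17.8 CPM against 27.5 and 22.4 CPM (log2 fold change 0.22, interval -0.22 to 0.65). The intervals of these 4 genes do not reach a 2-fold change in either direction.

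Among the B55 genes, PPP2R2C differed strongly. It was at 5.15 and 5.62 CPM (84 and 105 counts) in untreated control cells but at 0.899 and 0.543 CPM (16 and 8 counts) in the untreated RBM6-KO1 libraries. Both RBM6-KO1 libraries lay far below both control libraries. The log2 fold change was -2.88 (standard error, SE, 0.37, 95% interval -3.66 to -2.09, adjusted p = 9.15e-05 by edgeR's quasi-likelihood test), 7.34-fold lower. PPP2R2C was the 1 gene of the set that was called, of 7 tested, and 3.12% of the 15556 genes tested were called in this comparison, 1.97% as lower. It passed the filter on low counts through the control libraries, so its presence among the tested genes already reflects its level there. PPP2R2A, the most abundant B55 gene, was at 101 and 99.8 CPM against 100.1 and 106 CPM, and the groups overlapped (log2 fold change 0.02, interval -0.28 to 0.31). PPP2R2D was at 44.1 and 38.2 CPM against 39.4 and 41.9 CPM, both RBM6-KO1 libraries between the control libraries (log2 fold change -0.03, interval -0.38 to 0.31). PPP2R2B had 2 and 2 counts in untreated and 1 and 7 in irradiated control cells, and 1 and 2 counts in untreated and 6 and 2 in irradiated knockout cells. With at most 3 counts in 6 of 8 libraries it was removed by the filter everywhere, and a difference was not detectable at this depth. Of the 7 tested genes, the groups of PPP2CA and PPP2R2C did not overlap, beside 47.7% of all genes tested.

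After IR the same gene was called. PPP2R2C was at 5.56 and 8.78 CPM (86 and 273 counts) in irradiated control cells and at 1.96 and 1.57 CPM (38 and 32 counts) in irradiated RBM6-KO1 cells. Again both RBM6-KO1 libraries lay below both control libraries. The log2 fold change was -2.03 (SE 0.33, 95% interval -2.82 to -1.25, adjusted p = 0.0406, edgeR's quasi-likelihood test), 4.09-fold lower. It was the 1 called gene of 7 tested, beside 1.17% of the 15587 genes tested and 0.815% called as lower. The call was lost when every library had to hold 10 counts or more (adjusted p = 0.0667, edgeR), which left the fold change at -2.04, and when the test was made against a 2-fold change (adjusted p = 0.300, edgeR's glmTreat). Without replicate B of irradiated control cells, the deepest library and the one with the highest PPP2R2C, the log2 fold change was -1.66 (adjusted p = 0.00443, edgeR). The other 6 tested genes had log2 fold changes from -0.04 (PPP2R2D, interval -0.44 to 0.35) to 0.19 (PPP2CB, interval -0.17 to 0.55). The irradiated groups of PPP2CA, PPP2CB and PPP2R2C did not overlap, beside 38.7% of all genes tested.

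**Figure D2:**
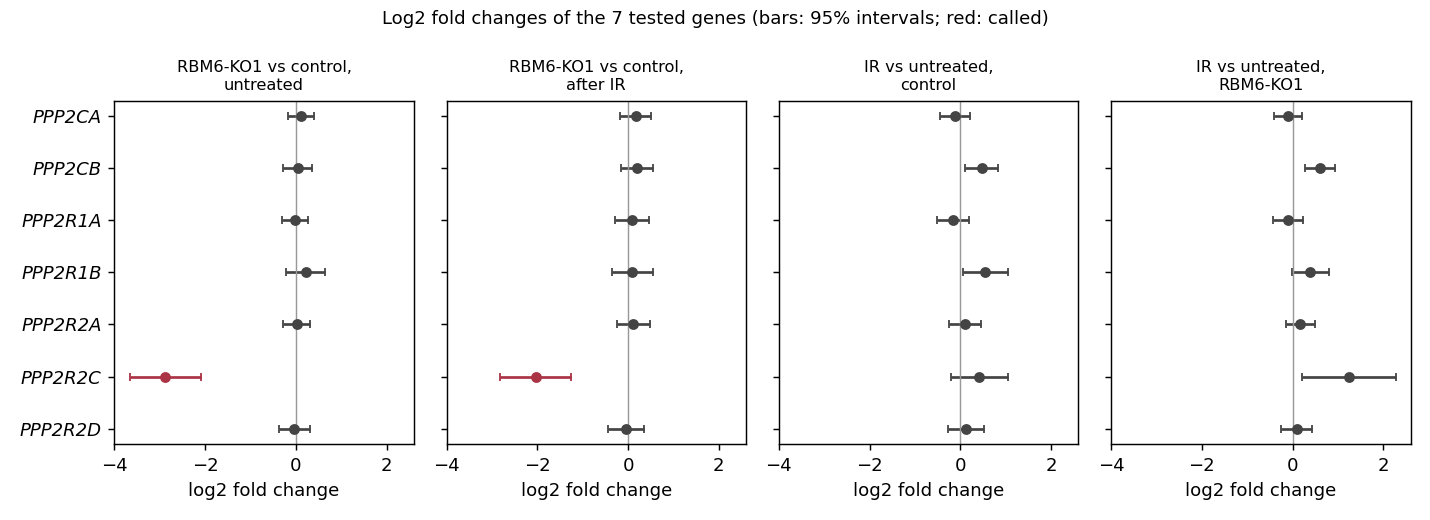
Log2 fold changes (horizontal axis) of the 7 tested PP2A genes in the 4 comparisons, 1 panel each, with 95% intervals as bars and called genes in red. PPP2R2C is called in the 2 comparisons of RBM6-KO1 with control cells, at -2.88 untreated and -2.03 after IR, and the intervals of the other 6 genes include 0 in both.

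Averaging the genotype difference over untreated and irradiated cells in 1 fit of all 8 libraries, a contrast added after the data were seen, gave the narrowest intervals. PPP2R2C was at 5.15 to 8.78 CPM in the 4 control libraries and at 0.543 to 1.96 CPM in the 4 RBM6-KO1 libraries. Its averaged log2 fold change was -2.45 (SE 0.24, adjusted p = 0.000146, edgeR), beside 3.4% of 16549 genes called and 2.2% called as lower. The averaged difference of PPP2CA was 0.14 (interval -0.05 to 0.34), that of PPP2CB 0.12 (interval -0.10 to 0.34) and that of PPP2R1A 0.04 (interval -0.19 to 0.26). That of PPP2R1B was 0.16 (interval -0.16 to 0.48), that of PPP2R2A 0.07 (interval -0.13 to 0.27) and that of PPP2R2D -0.04 (interval -0.27 to 0.20). None of these 6 passed, which does not show that they were equal, but the widest interval ends at 0.48, well under a 2-fold change.

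Since PPP2R2C was the least abundant of the B55 genes other than PPP2R2B, its place in the B55 pool was small in all cells. Per kilobase, PPP2R2C made up 3.27 ± 0.324% (SD, n = 2) of the B55 mRNA in untreated control cells and 3.95 ± 1.11% in irradiated control cells. In RBM6-KO1 cells its share was 0.449 ± 0.173% untreated and 0.968 ± 0.181% after IR. PPP2R2A held 62.6 to 69.7% of the pool in the 8 libraries and PPP2R2D 29.5 to 34.2%. By the length of the longest transcript PPP2R2D held 18.2 to 21.7%. The B55 pool as a whole ran from 16.8 to 19.9 CPM per kb. Its mean was 17.6 ± 0.648 CPM per kb (SD, n = 2) in control and 17.3 ± 0.677 in RBM6-KO1 cells before IR, against 19.3 ± 0.717 and 19.5 ± 0.590 after IR. The summed B55 mRNA of the genotypes thus lay within the spread between replicates. These shares are of mRNA, with no measure of protein.

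**Figure D3:**
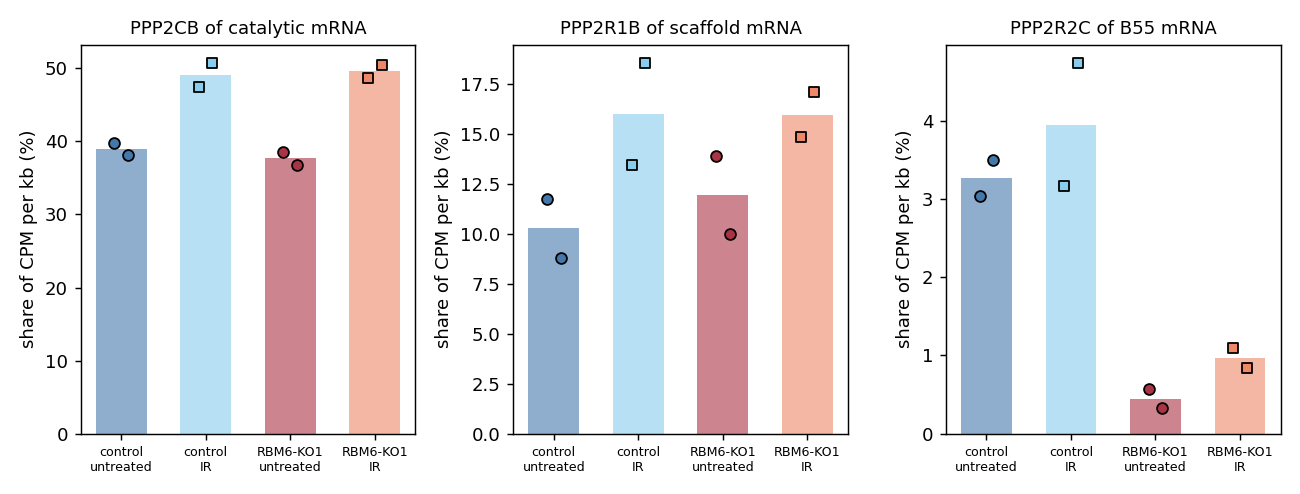
Share (%) of PPP2CB in the catalytic mRNA, of PPP2R1B in the scaffold mRNA and of PPP2R2C in the B55 mRNA, from CPM per kb of merged exons, with points for libraries and bars for the mean of 2. The PPP2CB share is 36.8 to 39.8% in untreated and 47.5 to 50.7% in irradiated libraries of both genotypes, while the PPP2R2C share is 3.04 to 4.73% in control and 0.326 to 1.10% in RBM6-KO1 libraries.

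The second question was how these genes responded to IR. In control cells none of the 7 tested genes was called by edgeR or DESeq2, beside 3.59% of the 15412 genes tested. An unadjusted p under 0.05 (edgeR) was reached by 2 of the 7, a share near the 25.4% of all genes tested. PPP2CB and PPP2R1B were at higher levels in both irradiated libraries. PPP2CB was at 88.6 and 74.7 CPM untreated and at 109 and 119 CPM after IR, with no overlap (log2 fold change 0.47, standard error 0.17, unadjusted p = 0.0150, adjusted p = 0.110, edgeR). PPP2R1B was at 24.9 and 17.8 CPM untreated and at 28.5 and 34.2 CPM after IR, also without overlap (log2 fold change 0.55, standard error 0.23, adjusted p = 0.163, edgeR). PPP2R2C, with 5.15 and 5.62 CPM untreated and 5.56 and 8.78 CPM after IR, overlapped (log2 fold change 0.42, interval -0.21 to 1.05, adjusted p = 0.382, edgeR). The remaining log2 fold changes were -0.16 for PPP2R1A, -0.12 for PPP2CA, 0.10 for PPP2R2A and 0.13 for PPP2R2D. In control cells the groups of 5 of the 7 genes did not overlap, beside 57.1% of all genes tested.

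In RBM6-KO1 cells, too, none of the 7 was called with the 2-fold limit by edgeR, beside 3.11% of the 15598 genes tested. DESeq2 called none either, but gave PPP2R2C no adjusted p. An unadjusted p under 0.05 (edgeR) was reached by 2 of the 7, a share near the 29.6% of all genes tested. PPP2CB was at 87.9 and 81.0 CPM untreated and at 124 and 135 CPM after IR, both irradiated libraries well above the untreated ones. Its log2 fold change was 0.60 (SE 0.15, adjusted p = 0.0488, edgeR's quasi-likelihood test), 1.52-fold higher, so that it passed the adjusted p alone, as did 5.67% of all genes, 2.44% as higher. This lay at the threshold. PPP2CB no longer passed without replicate A (adjusted p = 0.0615, edgeR) or B (0.313) of untreated RBM6-KO1 cells, without replicate B of the irradiated ones (0.217), or with upper quartile normalization (0.0537). PPP2R1B was at 27.5 and 22.4 CPM untreated and at 31.3 and 35.3 CPM after IR (log2 fold change 0.40, interval -0.01 to 0.81, adjusted p = 0.182, edgeR). PPP2R2C was at 0.899 and 0.543 CPM untreated and at 1.96 and 1.57 CPM after IR, without overlap, from 16 and 8 to 38 and 32 counts. Its log2 fold change was 1.24 (SE 0.46, interval 0.22 to 2.27, unadjusted p = 0.0226, adjusted p = 0.113, edgeR), and it did not pass. PPP2CA, PPP2R1A, PPP2R2A and PPP2R2D ran from -0.10 to 0.17. In RBM6-KO1 cells the groups of 6 of the 7 genes did not overlap, beside 62.1% of all genes tested.

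Whether the response to IR differed between the genotypes was tested as an interaction over all 8 libraries. No gene of the 16549 tested passed (0%), nor by DESeq2's Wald test, and 306 (1.85%) had an unadjusted p under 0.05 from edgeR. The interaction of PPP2R2C was 0.83 on the log2 scale (SE 0.49, interval -0.25 to 1.91, unadjusted p = 0.119, edgeR). The other 6 tested genes ran from -0.15 (PPP2R1B) to 0.13 (PPP2CB). A difference between control and RBM6-KO1 cells in how these genes responded was therefore not shown.

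The response averaged over both genotypes, again a contrast added after the data were seen, gave more precise values. PPP2CB was at 74.7 to 88.6 CPM in the 4 untreated and at 109 to 135 CPM in the 4 irradiated libraries, and its averaged log2 fold change was 0.55 (SE 0.10, adjusted p = 0.00498, edgeR). PPP2R1B was at 17.8 to 27.5 CPM untreated and at 28.5 to 35.3 CPM irradiated, with an averaged log2 fold change of 0.49 (SE 0.14, adjusted p = 0.0320, edgeR). For both genes every irradiated library lay above every untreated one. That of PPP2R2C was 0.84 (SE 0.24, adjusted p = 0.0289, edgeR). These 3 of 7 tested genes passed the adjusted p alone, as did 28.4% of all genes tested, 14.9% as higher, and none reached 2-fold, which 7.07% of all genes did with a passing p. PPP2CB passed in each fit that left out 1 library (adjusted p from 0.00423 to 0.0352, edgeR). PPP2R1B did not pass without replicate B of any 1 of the 4 groups (0.0848 to 0.133, edgeR) or with a replicate block (0.0535). PPP2R2C did not pass without replicate A or B of untreated control cells, without replicate B of irradiated control or untreated RBM6-KO1 cells, or without replicate A or B of irradiated RBM6-KO1 cells (0.0517 to 0.123, edgeR). PPP2CA (-0.10), PPP2R1A (-0.12), PPP2R2A (0.15) and PPP2R2D (0.12) did not pass.

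The shares of the alternative catalytic and scaffold subunits were read from the same levels. PPP2CB made up 38.2 and 39.8% of the catalytic mRNA per kilobase in untreated control cells and 47.5 and 50.7% after IR. In RBM6-KO1 cells it made up 36.8 and 38.6% untreated and 48.7 and 50.4% after IR. All 4 irradiated libraries were above all 4 untreated ones. PPP2R1B made up 8.81 and 11.7% of the scaffold mRNA in untreated control cells and 13.4 and 18.5% in irradiated control cells. In RBM6-KO1 cells it made up 10.0 and 13.9% untreated and 14.8 and 17.1% irradiated. Within each genotype the groups did not overlap, but the lower irradiated control library (13.4%) lay below the higher untreated RBM6-KO1 library (13.9%). These shares are given as a description with no test, and use of the longest transcript in place of merged exons set the mean PPP2CB share at 52.6% and 51.3% in untreated control and RBM6-KO1 cells and at 62.6% and 63.1% in irradiated ones.

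Reads can be shared with other genes. Of the stretches of 150 bases, the length of a read, in PPP2CA transcripts, 22.01% also occur in transcripts of ENSG00000273345, an overlapping gene on the same strand with at most 34 counts in any library. The share was 3.28% for PPP2R1A, 0.04% for PPP2R1B and 0 for the other 5 genes. PPP2R1B overlaps SIK2 on the opposite strand (up to 1616 counts) in 2.24% of its exon bases, and whether the counting used strand is not given in the sources used here. The longest run of bases common to PPP2CA and PPP2CB was 27, that of PPP2R1A and PPP2R1B 25, and the B55 genes shared runs of 18 to 41 bases, all well short of a read. In position, PPP2CA lies at chr5:134194035-134226073, PPP2CB at chr8:30774457-30814314, PPP2R1A at chr19:52170936-52229518 and PPP2R1B at chr11:111726908-111766389. PPP2R2A lies at chr8:26291508-26372680, PPP2R2B at chr5:146580742-147084784, PPP2R2C at chr4:6320578-6563600 and PPP2R2D at chr10:131901008-131959834.

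The rest of the PP2A system was read from 8 further lists with 47 genes, of which 46 were tested and CTTNBP2 had no count. In untreated cells none of the 46 was called between the genotypes by edgeR or DESeq2, beside 3.12% of all genes, and 5 had an unadjusted p under 0.05 (edgeR), beside 18.4% of all genes. The median log2 fold change was 0.03 against 0.01 over all genes tested. In the list of PP2A inhibitors, CIP2A, which binds PP2A and protects MYC from it, was at 27.4 and 20.8 CPM in untreated control and at 40.7 and 46.8 CPM in the untreated knockout. Both RBM6-KO1 libraries were higher, and the log2 fold change of 0.85 (SE 0.18, adjusted p = 0.00788, edgeR) passed the adjusted p alone, as 6.12% of all genes did. Without replicate B of untreated control cells CIP2A did not pass (log2 fold change 0.67, adjusted p = 0.138, edgeR). After IR it was at 17.7 and 20.8 CPM in control and at 23.6 and 18.8 CPM in RBM6-KO1 cells, where the groups overlapped (log2 fold change 0.14, adjusted p = 0.916, edgeR).

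CIP2A was also the 1 gene of the 46 called in the IR response of RBM6-KO1 cells, beside 3.11% of all genes tested. An unadjusted p under 0.05 (edgeR) was reached by 7 of the 46, beside 29.6% of all genes. It fell from 40.7 and 46.8 CPM to 23.6 and 18.8 CPM (log2 fold change -1.06, SE 0.19, adjusted p = 0.0195, edgeR). Its change came to -0.95 without replicate B of untreated and to -0.89 without replicate B of irradiated RBM6-KO1 cells, under the 2-fold limit, although the adjusted p remained at 0.0326 and 0.0200 (edgeR). In control cells it was -0.33 (adjusted p = 0.373, edgeR), and the interaction of -0.72 (unadjusted p = 0.0259) did not pass after adjustment, so a difference between the genotypes was not shown. None of the 46 list genes was called by edgeR or DESeq2 in irradiated RBM6-KO1 against control cells or in the control response to IR, where 2 and 6 had an unadjusted p under 0.05 (edgeR), beside 11.1% and 25.4% of all genes tested. The median log2 fold change of the 46 genes was 0.05 in the former comparison, 0.06 in the control response and 0.08 in the RBM6-KO1 response, against 0.02, 0.02 and -0.01 over all genes tested.

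The other lists are described by their genes of smallest unadjusted p in untreated cells, none of which passed. Of the B'' subunits, alternative regulatory subunits that bind calcium, PPP2R3C had a log2 fold change of 0.66 (adjusted p = 0.0965, edgeR) and PPP2R3A 0.56. Of the B56 subunits, another regulatory family, PPP2R5E had 0.35 and PPP2R5D -0.25. Of the striatins and their partners in the STRIPAK complex, in which PP2A holds kinases inactive, STRN4 had -0.18 and PDCD10 0.21. Of the factors that assemble and methylate PP2A, the activator PTPA had -0.20 and the catalytic subunit chaperone IGBP1 -0.12. The second inhibitor was PABIR3 with 0.54. In the Greatwall arm, the kinase MASTL had 0.21 and its target ARPP19 0.13. Among the subunits of the related phosphatases PP4 and PP6, PPP4R3B had 0.43 and PPP6R3 0.21. Of the Integrator subunits that bring PP2A to transcribing RNA polymerase II, INTS8 had 0.22 and INTS6 0.01.

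**Figure D4:**
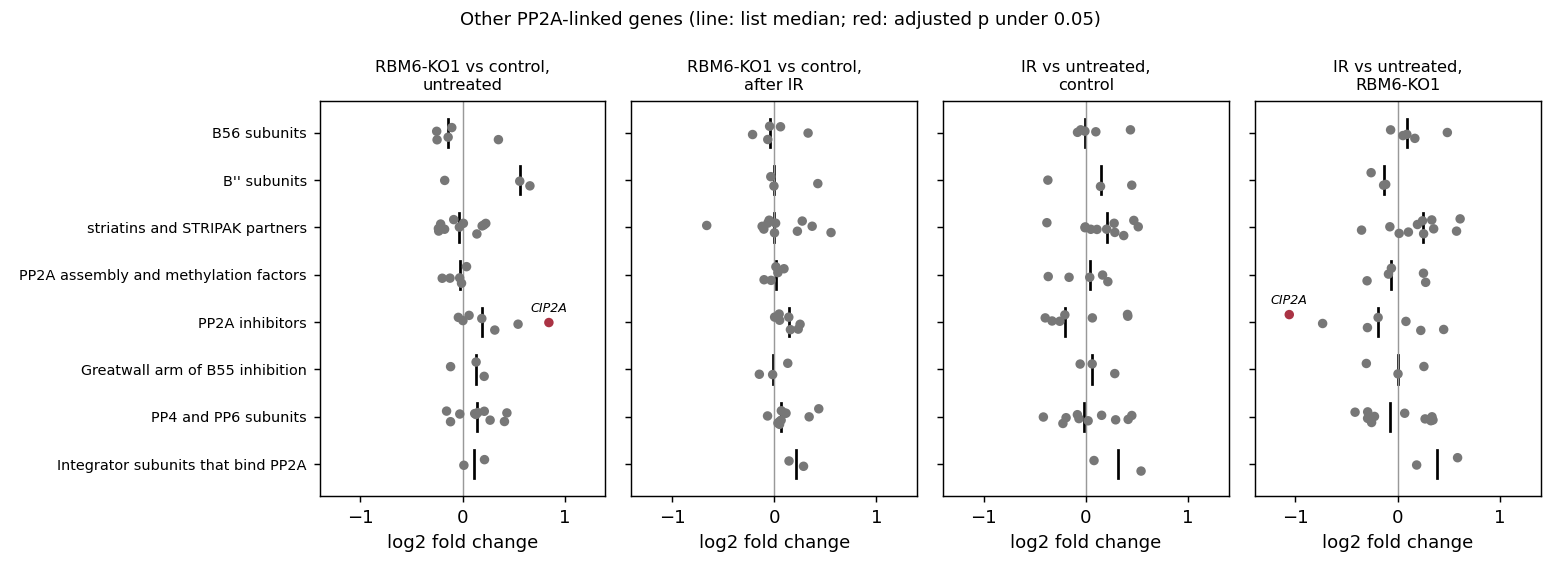
Log2 fold changes (horizontal axis) of 46 other PP2A-linked genes in 8 lists, 1 panel per comparison, with a point per gene, a line at the median of each list and genes with an adjusted p under 0.05 in red. CIP2A is the 1 red gene, at 0.85 in untreated RBM6-KO1 against control cells and at -1.06 after IR in RBM6-KO1 cells.

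The surroundings of PPP2R2C on chromosome 4 were examined for a change shared with its neighbours. Of 42 annotated genes with a start within 1 Mb, 33 were in the table, and 15 were tested in untreated cells, with a median log2 fold change of -0.07 and a range from -1.33 to 1.12. Of these 15, 2 were called, in opposite directions, beside 3.12% of all genes tested. An unadjusted p under 0.05 (edgeR) was reached by 5 of the 15, beside 18.4% of all genes. CRMP1, whose start lies 671 kb away, was higher in RBM6-KO1 cells (1.12, adjusted p = 0.00320, edgeR), and the calcium-binding protein gene S100P, 130 kb away and named after its value was seen, was lower (-1.33, adjusted p = 0.0181, edgeR). DESeq2 called CRMP1 and not S100P. The nearest tested genes were MAN2B2 (11.6 kb, 0.27) and MRFAP1 (76.5 kb, -0.07) on one side and WFS1 (294 kb, -0.54) and CRMP1 on the other. After IR, 16 neighbours were tested and none was called by edgeR or DESeq2, beside 1.17% of all genes called by edgeR. An unadjusted p under 0.05 (edgeR) was reached by 1 of the 16, beside 11.1% of all genes. Their median was close to 0, with values of 0.17 for MAN2B2, -0.04 for MRFAP1, -0.44 for WFS1 and 0.65 for CRMP1. Over chromosome 4 the median was 0.08 untreated (599 genes) and 0.10 after IR (603 genes).

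**Figure D5:**
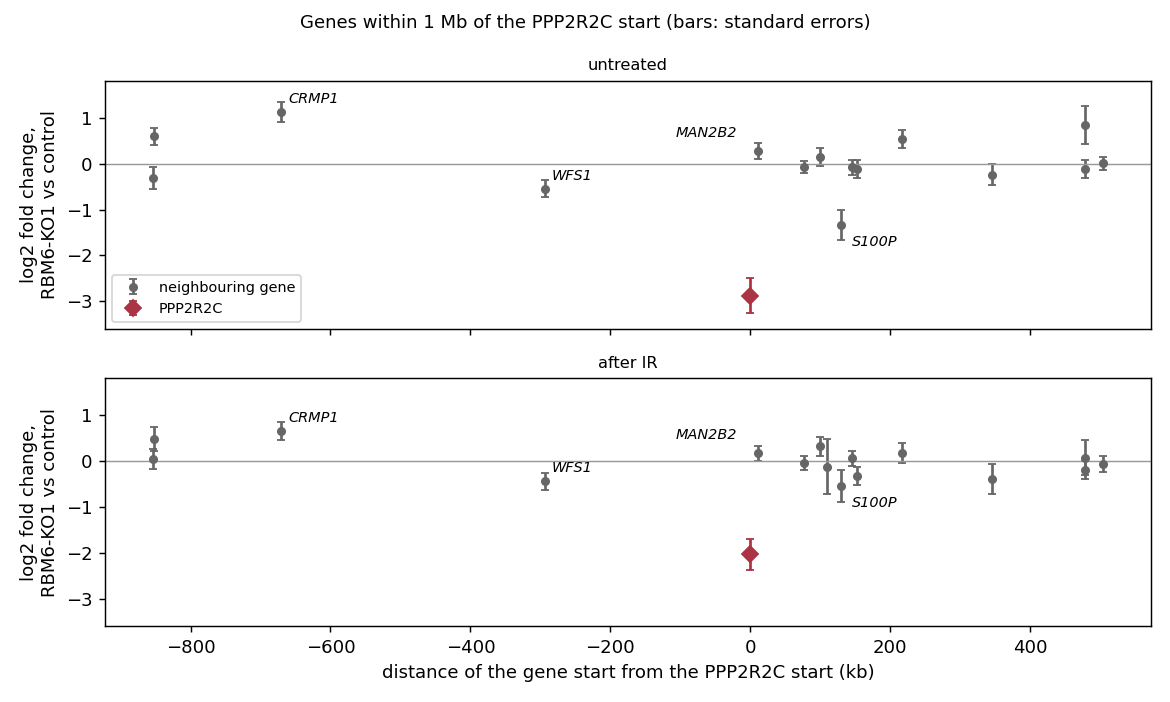
Log2 fold change of RBM6-KO1 against control cells (vertical axis, bars of 1 standard error) for PPP2R2C, in red, and its tested neighbours by distance of their starts in kb (horizontal axis), untreated above and after IR below. PPP2R2C at -2.88 and -2.03 lies below all its neighbours, whose lowest value is -1.33 untreated and -0.54 after IR.

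The level of PPP2R2C over the 8 libraries was most alike to those of 5 genes elsewhere in the genome. On log2 CPM, among 13804 genes with a mean of at least 1 CPM, Pearson's r with PPP2R2C was 0.991 for ACACB (acetyl-CoA carboxylase of the mitochondrial surface), 0.985 for KCNJ15 (a potassium channel), 0.985 for PTGS1 (cyclooxygenase 1), 0.983 for EYA2 (a phosphatase and transcription cofactor) and 0.983 for L1CAM (a cell adhesion molecule). They were lower in untreated RBM6-KO1 cells by log2 fold changes from -1.29 (PTGS1) to -3.92 (EYA2). That direction follows from choosing them by likeness to PPP2R2C over these same libraries. The study had also singled out EYA2 in these libraries, together with PPP2R2C. The 8 points share genotype and treatment, so these values describe the ordering of 4 groups of 2 libraries. Because PPP2R2C is known from brain, markers of neural cells were summed beside it, 5 of neurons and the astrocyte marker GFAP. The 6 markers came to 5.25 to 6.19 CPM in the untreated control and 9.33 to 9.65 CPM in the untreated RBM6-KO1 libraries, higher where PPP2R2C was lower, and to 3.76 to 4.53 and 6.70 to 10.7 CPM in irradiated control and RBM6-KO1 cells. Between the untreated genotypes the log2 fold change was 2.20 for SNAP25, 0.87 for RBFOX3, 0.43 for SYT1 and 0.05 for SYP, so the markers did not move alike. Of the others, which were not tested, STMN2 had at most 2 counts and GFAP at most 12. The part of cells of another type in these levels was not tested, and in bulk RNA fewer expressing cells and less RNA per cell cannot be told apart.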

How the data were processed

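RNA was sequenced from control and RBM6-KO1 MCF10A-Hras cells in 4 groups of 2 biological replicates. The authors deposited raw counts per Ensembl gene without normalization. The submitters' processing notes name hg38, STAR and DESeq2. The counting tool, annotation version and strandedness are not given in the sources used here. Of the identifiers, 57392 matched GENCODE v44, which gave symbols, positions and exon lengths. P-values measure only the spread between these libraries.

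Counts were tested in R 4.3.3 with edgeR 4.0.16 (quasi-likelihood F test, TMM, filterByExpr), each comparison on its own 4 libraries and the interaction on all 8, with Benjamini-Hochberg adjustment over all genes kept. The standard error is the log2 fold change over the square root of F. Calls needed an adjusted p under 0.05 and a 2-fold change. DESeq2 1.42.0 was an alternative, beside other normalizations, filters, call rules, a replicate block and each library left out. The tests were also run on simulated counts with the same spread set for every gene, which does not check the calls made here. A prior count of 2 was used for log2 CPM. The RefSeq promoter windows are described by motif matches on both strands.

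The members and lists were chosen with earlier results of these data known. Named were all members, RBM6, called list genes, the 2 list genes of smallest p in untreated cells, the 5 genes most like PPP2R2C and its 2 nearest tested neighbours on each side. Splicing and protein were not analysed here.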

Additional observations from a re-analysis of the deposited data

How the results depend on the processing

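Across the alternatives PPP2R2C remained lower in the knockout, at log2 fold changes from -2.90 to -2.86 untreated and -2.04 to -2.01 after IR over the settings, and of -3.32 to -2.57 and -2.32 to -1.66 when each library was left out in turn. In untreated cells it stayed called in every alternative in which it was tested. Asking for 10 counts or more in each library removed it there (8 counts in 1 library), leaving 0 called members in untreated cells and 0 in the averaged genotype contrast. After IR that filter (log2 fold change -2.04, adjusted p = 0.0667) and glmTreat against 2-fold (-2.03, adjusted p = 0.300) gave 0 called members in place of 1. With the adjusted p alone, 1 member (PPP2CB) passed in the IR response of RBM6-KO1 cells and 3 in the averaged IR response, in place of 0. When each library was left out in turn, the averaged IR log2 fold change of PPP2R2C ran from 0.66 to 1.06. It reached 2-fold only without replicate A of the untreated knockout (1.06). The labels do not say that the letters A and B pair the libraries, and same-letter deviations correlated at -0.28 to 0.35, highest between the irradiated groups. A replicate block on the letter kept 1, 1, 0 and 0 called members in the 4 comparisons and gave PPP2R2C log2 fold changes of -2.88 and -2.01, but PPP2CB no longer passed the adjusted p alone in irradiated RBM6-KO1 cells (adjusted p = 0.164). In irradiated RBM6-KO1 against control cells it raised the genes with an adjusted p under 0.05 from 189 to 2416 and brought RBM6 to an adjusted p of 0.0169 (log2 fold change -0.41). With crossed letters, added after the data were seen, 1 member was called in the IR response of RBM6-KO1 cells (PPP2R2C, 1.25). This block raised the genes called there from 485 to 1222 of 15598. Those with an adjusted p under 0.05 rose from 884 to 6926, so the call is not particular to PPP2R2C. Of 390 recomputed log2 fold changes of uncalled members, 21 had another sign. Low counts limit PPP2R2B, and PPP2R2C in RBM6-KO1 cells.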

Other observations

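Over the 8 libraries, the log2 CPM of PPP2CB ran with that of PPP2R1B (Pearson's r = 0.930) and PPP2R2A (0.862), and that of PPP2CA ran against that of PPP2R2C (-0.863), as a description over libraries that share genotype and treatment. PPP2CA was at 189.7 CPM as the median of 8 libraries and moved little, from 167 to 202 CPM. PPP2R2C had the widest spread of the 8 genes, with a highest level 16.2 times its lowest, against 1.21 to 1.98 times for the 6 abundant genes.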
